A study of Mus musculus with 8 samples.

Results

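Astrocytes are glial cells that clear glutamate released by neurons, turn it into glutamine, buffer potassium and water, and wrap vessels and synapses with fine processes. They arise from radial glia, the neural stem cells whose long fibres span the developing cord, and around birth many cells still hold features of both. Genes of these cells fall into filament proteins, glutamate handling, metabolic enzymes, a water channel of the endfeet on vessels, and small binding proteins. A total of 10 such genes were followed by name in all 8 libraries, out of 23278 genes in the deposited tables: Gfap, Vim, Slc1a2, Slc1a3, Glul, Aldh1l1, Aldoc, Aqp4, S100b and Fabp7. All 10 had a row in every library and passed the filter on low values. None of these genes is specific to astrocytes: Vim is also a filament of fibroblasts and endothelium, and S100b, Aldoc, Fabp7 and Glul are known from oligodendrocyte lineage cells or neurons as well.

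The mice were FVB/N, and the lumbar cord was taken on postnatal day 1. The SMA mice had the genotype SMN2+/+;SMNΔ7+/+;Smn-/-, that is, they lacked mouse Smn and carried human SMN2 and an SMN transgene without exon 7, a model of spinal muscular atrophy taken before symptoms. The WT mice had the genotype WT. Motor neurons of the ventral horn and nearby white matter were cut out by laser from hematoxylin-stained sections, by morphology and position and not by a marker. The 4 groups were SMA motor neurons, WT motor neurons, SMA white matter and WT white matter, each with 2 libraries. The labels name no animals, so regions could not be paired by animal. The p-values measure the spread between these libraries. The 2 libraries of each group differed in Xist, as given below, so they were not repeats of the same RNA. The spread within a group includes that difference.

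Each value is in RPKM, a read count per gene divided by the gene's length and by the depth of its library. The denominators worked out from the steps between values were 77.5 to 102.8 M reads, of which 45.05 to 68.2 M fell on genes other than the ribosomal RNA gene Rn45s. SMA white matter (68.2 and 64.5 M) lay above WT white matter (45.05 and 49.7 M) in that sum. The 10 genes had between 1135 reads (Gfap in WT motor neuron replicate 1) and 337504 reads (Fabp7 in SMA white matter replicate 1). The targeted gene Smn1 was listed at 0 in all 4 SMA libraries, and was at 6.82 and 2.93 RPKM in WT motor neurons and 5.30 and 14.3 RPKM in WT white matter. The summed level of 10 motor neuron markers was 570.4 and 586 RPKM in SMA motor neurons and 708 and 730.1 RPKM in WT motor neurons, against 10.9 to 20.5 RPKM in SMA white matter and 7.98 to 11.6 RPKM in WT white matter. Replicate 1 of every group had Xist, the RNA of the inactive X chromosome, at 12.6 RPKM or more, and replicate 2 of every group had it at 0.0581 RPKM or less.

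All 10 genes were measured in every motor neuron capture, and they differed from white matter to very unequal extents. In SMA, 8 were lower in motor neurons than in white matter and 2 did not pass. In WT, 6 were lower and 4 did not pass. The size of the difference ran from Gfap, at 4.15% of its white matter level in WT motor neurons, to Aldoc, at 126%. No gene of the 10 passed between SMA and WT in either region. Differences of log2(RPKM + 1) are given with their SE; adding 1 understates the change of low genes. They were tested with limma and Benjamini-Hochberg adjustment over all 13948 tested genes. In these bulk captures, fewer cells of a type and less RNA per cell cannot be told apart.

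**Figure D1:**
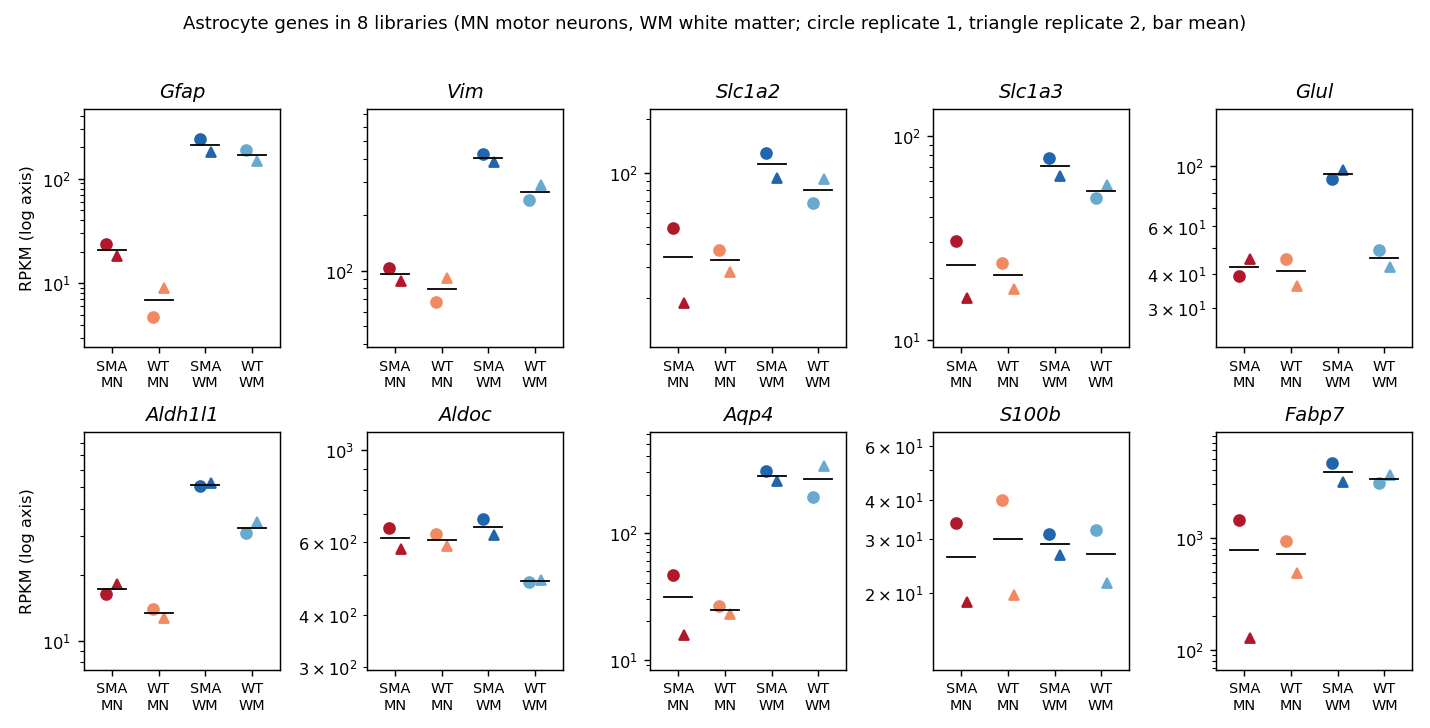
RPKM on a log axis of the 10 astrocyte genes in 8 libraries, with a circle for replicate 1, a triangle for replicate 2 and a bar for the mean, in SMA motor neurons (SMA MN), WT motor neurons (WT MN), SMA white matter (SMA WM) and WT white matter (WT WM). Gfap and Aqp4 lie far lower in both motor neuron groups, Aldoc and S100b do not, and Fabp7 differs widely between the SMA motor neuron libraries (1431 and 129 RPKM).

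The order of the levels also differed between the regions. By mean level in WT white matter, Fabp7 (3318 RPKM) stood first, then Aldoc (482), Vim (265), Aqp4 (264), Gfap (167), Slc1a2 (80.0), Slc1a3 (53.4), Glul (45.9), Aldh1l1 (32.8) and S100b (26.8). Of neighbours in that order, the libraries of Vim and Aqp4, of Slc1a3 and Glul, and of Aldh1l1 and S100b overlapped. By mean level in WT motor neurons the order was Fabp7 (711 RPKM), Aldoc (608), Vim (79.6), Glul (41.0), Slc1a2 (32.7), S100b (29.9), Aqp4 (24.8), Slc1a3 (20.7), Aldh1l1 (13.4) and Gfap (6.92). Here the libraries of Fabp7 and Aldoc and those of Glul, Slc1a2, S100b, Aqp4 and Slc1a3 overlapped from each neighbour to the next. Gfap was the fifth of the 10 in WT white matter and the last in WT motor neurons.

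Gfap and Aldoc lay at opposite ends of the regional difference in WT, and their promoters are shown so that these can be set side by side. Each is the RefSeq sequence from 250 bases before to 50 bases after the start of the gene, 5′ to 3′ on the gene's strand, in build GRCm38.p6, which is not the mm9 build of the deposited tables. Capitals mark matches to the letters TTCNNNGAA, the pattern bound by STAT factors, or GTGGGAA, the pattern bound by the Notch partner RBPJ, searched on both strands. For Aldoc the first of its 2 listed starts is shown.
Gfap, chr11:102897151-102897450, minus strand: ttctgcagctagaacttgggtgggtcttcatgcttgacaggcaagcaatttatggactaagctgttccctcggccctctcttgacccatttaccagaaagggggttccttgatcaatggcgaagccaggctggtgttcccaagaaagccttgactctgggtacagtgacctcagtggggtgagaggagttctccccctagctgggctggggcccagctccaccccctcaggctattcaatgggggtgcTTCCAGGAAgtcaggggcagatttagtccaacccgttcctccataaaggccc
Aldoc, chr11:78322823-78323122, plus strand: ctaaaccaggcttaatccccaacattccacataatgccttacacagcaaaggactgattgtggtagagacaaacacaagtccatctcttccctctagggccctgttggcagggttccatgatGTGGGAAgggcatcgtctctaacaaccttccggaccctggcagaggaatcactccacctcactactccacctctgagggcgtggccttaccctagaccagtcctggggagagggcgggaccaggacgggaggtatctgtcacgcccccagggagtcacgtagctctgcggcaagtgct

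The Gfap match to the STAT letters begins at base -2, across the start itself. The STAT site known from work on the mouse and rat Gfap promoters lies further upstream and was not searched. Slc1a3 had a match to the same letters at -96, and the other start of Aldoc had 2, while 8.47% of 27025 promoters of this length held one. The Aldoc match to the RBPJ letters begins at -128, the other Aldoc start had 1 more, and 6.39% of promoters held one. The windows of Vim, Slc1a2, Glul, Aldh1l1, S100b and Fabp7 held neither. None of the 9 genes searched held the palindrome of NFI factors (0.0407% of promoters), ACAAAG (SOX; 18.7%) or TGACTCA (AP-1; 5.17%). The promoter of Aqp4 was not analysed here. Gfap and Aldoc lie on chromosome 11, Vim and Slc1a2 on 2, S100b and Fabp7 on 10, Slc1a3 on 15, Glul on 1, Aldh1l1 on 6 and Aqp4 on 18.

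The first comparison asked how far each gene differed between motor neuron and white matter captures. In WT, 6 of the 10 genes were called lower in motor neurons and 0 higher, where 9.85% of all tested genes were called lower and 18.6% higher. In SMA, 8 of the 10 were called lower and 0 higher, where 17.2% of all tested genes were called lower and 13.6% higher. These shares moved with the scaling: of the called genes 44.2% in SMA and 65.4% in WT were higher in motor neurons as deposited, 53.8% and 55.6% with median-of-ratios scaling, and 40.3% and 40.9% by voom on recovered reads. The median log2 difference of the 10 was -1.72 in SMA and -1.30 in WT, beside -0.24 and 0.079 for all tested genes. The libraries of the 2 regions did not overlap for 8 of the 10 genes in either genotype, beside 63.8% of all genes in SMA and 70% in WT.

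Gfap, the intermediate filament of maturing and reactive astrocytes, was at 23.5 and 18.2 RPKM in SMA motor neurons, 4.795 and 9.04 RPKM in WT motor neurons, 238 and 179 RPKM in SMA white matter and 187 and 146 RPKM in WT white matter. All motor neuron libraries lay far below all white matter libraries. Gfap was lower in motor neurons, with a log2 difference of -3.26 ± 0.32 in SMA (limma adjusted p = 1.59e-04) and -4.45 ± 0.32 in WT (adjusted p = 2.34e-05). In RPKM this was 9.995% of the white matter mean in SMA and 4.15% in WT. Vim, the vimentin filament of radial glia and immature astrocytes, was at 103 and 87.6 RPKM in SMA motor neurons, 67.7 and 91.4 RPKM in WT motor neurons, 427 and 388 RPKM in SMA white matter and 239 and 291 RPKM in WT white matter. The regions did not overlap for Vim either, but the gap was narrower. Vim was lower in motor neurons, with a log2 difference of -2.09 ± 0.23 in SMA (limma adjusted p = 2.84e-04) and -1.73 ± 0.23 in WT (adjusted p = 5.54e-04).

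The ratio of Gfap to Vim, both in RPKM, was 0.228 and 0.208 in SMA motor neurons, 0.0708 and 0.0988 in WT motor neurons, 0.557 and 0.462 in SMA white matter and 0.780 and 0.504 in WT white matter. Vim stood above Gfap in every library, and the 4 groups' ranges of the ratio did not overlap except between the white matter groups.

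Slc1a2 encodes GLT-1, the main glutamate transporter of mature astrocytes. It was at 49.1 and 18.9 RPKM in SMA motor neurons, 37.3 and 28.0 RPKM in WT motor neurons, 129 and 93.9 RPKM in SMA white matter and 67.6 and 92.5 RPKM in WT white matter. Motor neurons lay below white matter in both genotypes, with a wide gap between the SMA motor neuron libraries. Slc1a2 was lower in motor neurons, with a log2 difference of -1.82 ± 0.41 in SMA (limma adjusted p = 0.00949) and -1.26 ± 0.41 in WT (adjusted p = 0.0444). The WT call was lost under 8 of 19 alternatives, among them those without any single WT library (limma adjusted p = 0.0853 to 0.229). The SMA call was lost without SMA white matter replicate 1 (adjusted p = 0.0747; 4.13e-04 to 0.0747 over the 19 alternatives), and its value was -1.15 without SMA motor neuron replicate 2.

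Slc1a3 encodes GLAST, the glutamate transporter that radial glia and young astrocytes already use. It was at 30.5 and 15.9 RPKM in SMA motor neurons, 23.6 and 17.8 RPKM in WT motor neurons, 78.0 and 63.0 RPKM in SMA white matter and 49.3 and 57.5 RPKM in WT white matter. Its pattern over the libraries was close to that of Slc1a2, with motor neurons below white matter throughout. Slc1a3 was lower in motor neurons, with a log2 difference of -1.62 ± 0.33 in SMA (limma adjusted p = 0.00564) and -1.34 ± 0.33 in WT (adjusted p = 0.0137). In WT it no longer passed when replicate 2 of WT motor neurons (adjusted p = 0.11) or of WT white matter (adjusted p = 0.0937) was left out, with 3.01e-04 to 0.11 over the 19 alternatives. The ratio of Slc1a2 to Slc1a3 was 1.61 and 1.18 in SMA motor neurons, 1.58 and 1.58 in WT motor neurons, 1.65 and 1.49 in SMA white matter and 1.37 and 1.61 in WT white matter. These ranges overlapped between all groups.

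Glul encodes glutamine synthetase, which turns the glutamate taken up into glutamine. It was at 39.3 and 45.7 RPKM in SMA motor neurons, 45.7 and 36.3 RPKM in WT motor neurons, 90.1 and 96.9 RPKM in SMA white matter and 49.3 and 42.4 RPKM in WT white matter. The SMA white matter libraries stood above all 6 others, which lay close together. Glul was lower in motor neurons in SMA, with a log2 difference of -1.12 ± 0.24 (limma adjusted p = 0.0069). In WT the regions overlapped and the difference was -0.16 ± 0.24 (adjusted p = 0.65). The test of the difference between these regional differences did not pass (-0.96 ± 0.33, limma adjusted p = 0.883).

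Among the metabolic enzymes, Aldh1l1 is a folate enzyme whose promoter is widely used to mark astrocytes. It was at 16.3 and 18.2 RPKM in SMA motor neurons, 14.0 and 12.7 RPKM in WT motor neurons, 50.8 and 52.2 RPKM in SMA white matter and 31.0 and 34.7 RPKM in WT white matter. Replicates were close to each other and the 4 groups did not overlap. Aldh1l1 was lower in motor neurons, with a log2 difference of -1.53 ± 0.24 in SMA (limma adjusted p = 0.00174) and -1.23 ± 0.24 in WT (adjusted p = 0.00454).

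Aldoc, aldolase C, is the brain form of a glycolytic enzyme. It was at 647 and 578 RPKM in SMA motor neurons, 629 and 587 RPKM in WT motor neurons, 681 and 623 RPKM in SMA white matter and 479.9 and 484 RPKM in WT white matter. WT white matter was the lowest group, and the other 3 groups overlapped. The regional difference was -0.091 ± 0.17 in SMA (limma adjusted p = 0.717) and 0.33 ± 0.17 in WT (adjusted p = 0.186), and neither passed. The WT value was below 0 after quantile normalization, scaling to the sum without Rn45s or voom, and the SMA value above 0 with median-of-ratios scaling.

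The related aldolase gene Aldoa, the form of muscle and most tissues, was at 573 and 688.8 RPKM in SMA motor neurons, 605 and 608 RPKM in WT motor neurons, 198 and 185 RPKM in SMA white matter and 133 and 114 RPKM in WT white matter. Aldoa was higher in motor neurons by 1.71 ± 0.19 in SMA (limma adjusted p = 3.38e-04) and by 2.29 ± 0.19 in WT (adjusted p = 5.51e-05). The ratio of Aldoc to Aldoa was 1.13 and 0.839 in SMA motor neurons and 1.04 and 0.965 in WT motor neurons, against 3.44 and 3.38 in SMA white matter and 3.62 and 4.25 in WT white matter. Every motor neuron library lay near 1 in that ratio, and every white matter library above 3.

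Aqp4 encodes the water channel that astrocytes gather in their endfeet on vessels and at the cord surface. It was at 46.2 and 15.5 RPKM in SMA motor neurons, 26.6 and 23.0 RPKM in WT motor neurons, 308 and 257 RPKM in SMA white matter and 191 and 336 RPKM in WT white matter. The regions stood well apart, and replicates differed most in SMA motor neurons and WT white matter. Aqp4 was lower in motor neurons, with a log2 difference of -3.34 ± 0.45 in SMA (limma adjusted p = 7.69e-04) and -3.30 ± 0.45 in WT (adjusted p = 6.45e-04). The ratio of Aqp4 to Gfap was 1.97 and 0.853 in SMA motor neurons, 5.55 and 2.55 in WT motor neurons, 1.29 and 1.44 in SMA white matter and 1.02 and 2.29 in WT white matter. That ratio was highest in the WT motor neuron libraries.

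S100b encodes a calcium-binding protein of astrocytes that oligodendrocyte lineage cells and some neurons also make. It was at 33.7 and 18.8 RPKM in SMA motor neurons, 40.1 and 19.7 RPKM in WT motor neurons, 31.2 and 26.5 RPKM in SMA white matter and 32.0 and 21.6 RPKM in WT white matter. All 4 groups overlapped, and in each of them replicate 1 was the higher library. The regional difference was -0.18 ± 0.40 in SMA (limma adjusted p = 0.752) and 0.093 ± 0.40 in WT (adjusted p = 0.888). Its sign changed with the scaling in both genotypes.

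Other S100 genes did differ between the regions, in both directions. S100a1, S100a4, S100a6, S100a13 and S100a16 were lower in motor neurons in SMA and in WT, and S100a10, a partner of annexin A2, was higher in both. S100a6 was at 25.5 ± 5.63 RPKM in SMA motor neurons against 233 ± 19.5 RPKM in SMA white matter, and at 12.1 ± 1.497 RPKM in WT motor neurons against 171 ± 12.97 RPKM in WT white matter (SD, n = 2 each). S100a10 was at 282 ± 63.5 RPKM in SMA motor neurons against 85.7 ± 14.1 RPKM in SMA white matter, and at 272 ± 61.5 RPKM in WT motor neurons against 69.6 ± 0.139 RPKM in WT white matter.

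Fabp7, the brain lipid-binding protein, is the classic radial glia gene of the set. It was at 1431 and 129 RPKM in SMA motor neurons, 935 and 486 RPKM in WT motor neurons, 4578 and 3138 RPKM in SMA white matter and 3050 and 3586 RPKM in WT white matter. White matter lay above motor neurons throughout, where it ranked between the second and the fifth of all genes in every library. In motor neurons its rank was 7 and 282 in SMA and 17 and 45 in WT. Fabp7 was lower in motor neurons in SMA, with a log2 difference of -3.14 ± 0.85 (limma adjusted p = 0.0208). In WT the difference was -2.29 ± 0.85 and did not pass (adjusted p = 0.071). All groups share 1 estimate of the spread in this fit, and the SMA motor neuron libraries were the farthest apart. Without either of them the WT difference passed (adjusted p = 0.000333 and 0.000338). With the 4 WT libraries alone it passed too (adjusted p = 0.000336; 3.33e-04 to 0.302 over the 19 alternatives), and with the 4 SMA libraries alone the SMA difference did not (adjusted p = 0.0713; 4.72e-05 to 0.116). The SMA call was also lost with no filter on low values (adjusted p = 0.0922) and without SMA white matter replicate 1 (adjusted p = 0.116) or replicate 2 (adjusted p = 0.0713). The SMA value was -4.87 without SMA motor neuron replicate 1 and -1.41 without replicate 2.

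Of the relatives of Fabp7, Fabp5 was at 17.8 ± 14.5 RPKM in SMA motor neurons against 35.3 ± 12.2 RPKM in SMA white matter, and at 20.4 ± 3.64 RPKM in WT motor neurons against 30.3 ± 6.74 RPKM in WT white matter (limma adjusted p = 0.112 in SMA and 0.468 in WT). Fabp3, the heart form that neurons also use, went the other way: it was at 14.9 ± 0.00945 RPKM in SMA motor neurons against 3.39 ± 0.755 RPKM in SMA white matter, and at 14.2 ± 2.21 RPKM in WT motor neurons against 2.58 ± 1.42 RPKM in WT white matter (limma adjusted p = 0.00459 in SMA and 0.00209 in WT). Of the other relatives, Aldh1a1 passed in SMA, where it was lower in motor neurons (limma adjusted p = 0.0292), and not in WT (adjusted p = 0.12). Aldh1l2 and Aqp11 passed in neither genotype, and Aqp1 and Aqp9 did not pass the filter on low values.

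**Figure D2:**
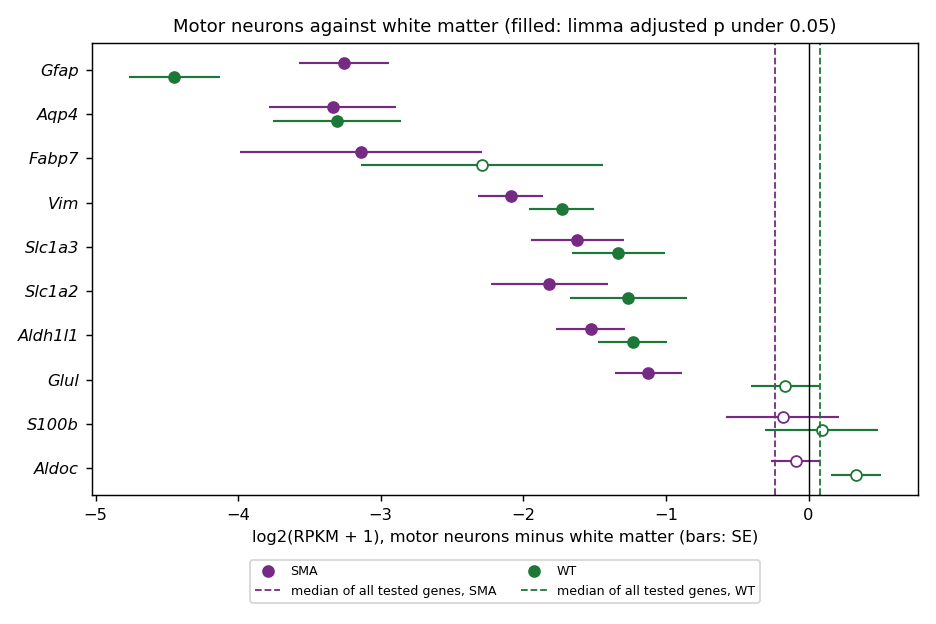
Log2(RPKM + 1) in motor neurons minus white matter for the 10 genes, with bars for the SE, in SMA and in WT. Filled points have a limma adjusted p under 0.05, and dashed lines mark the median of all tested genes: Gfap lies at -3.26 in SMA and -4.45 in WT, and Aldoc and S100b lie near 0.

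Markers of other cell types give a scale for these levels. In SMA motor neurons the median gene of the 10 stood at 31.7% of its white matter level, against 39.8% in WT. The median gene of the myelinating oligodendrocyte list stood at 1.93% in SMA and 0.735% in WT, that of the oligodendrocyte precursor list at 13.1% in SMA and 19.0% in WT, and that of the microglia list at 15.6% in SMA and 11.1% in WT. Endothelial genes stood at 52.7% in SMA and 78.4% in WT. The 10 genes had a median between those of precursor and endothelial genes, while Gfap and Aqp4 on their own had percentages below or near those of the precursor list.

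Astrocyte and radial glia genes outside the 10 were mostly lower in motor neurons as well. The median log2 difference of the other astrocyte list was -1.25 in SMA and -1.15 in WT, that of the radial glia list -1.73 and -1.51, and that of the reactive list -1.26 and -1.03. Glutamate cycle genes had a median of -0.11 in SMA and 0.41 in WT, and filament and endfoot partners -0.65 and -0.22. Of 41 tested other astrocyte genes, 25 were lower and 2 higher in SMA motor neurons, and 21 were lower and 2 higher in WT motor neurons. The lower genes included Gpr37l1, an orphan receptor (5.003 ± 0.149 RPKM in SMA motor neurons against 39.3 ± 0.664 RPKM in SMA white matter, and 5.63 ± 0.743 RPKM in WT motor neurons against 31.9 ± 3.20 RPKM in WT white matter), Id3, an inhibitor of bHLH factors (19.6 ± 11.7 against 223 ± 48.9 RPKM in SMA, and 18.1 ± 1.76 against 198 ± 11.2 RPKM in WT), and Ttyh1, a membrane protein (50.6 ± 2.49 against 204 ± 21.5 RPKM in SMA, and 42.3 ± 3.25 against 137 ± 16.3 RPKM in WT). Each of these had a limma adjusted p of 5.08e-04 or less. Sparcl1, a secreted synapse-promoting protein, was among the 4 with the smallest p in SMA (304 ± 61.5 RPKM in motor neurons against 986 ± 105 RPKM in white matter), and the neurotensin receptor Ntsr2 in WT (2.37 ± 0.475 against 20.6 ± 7.45 RPKM).

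The higher genes of that list were the same pair in both genotypes. Clu, the secreted chaperone clusterin, was at 73.4 ± 3.15 RPKM in SMA motor neurons against 32.8 ± 9.89 RPKM in SMA white matter (limma adjusted p = 0.0217), and at 76.6 ± 18.4 against 24.2 ± 8.09 RPKM in WT (adjusted p = 0.00447). Gpc5, a heparan sulfate proteoglycan, was at 6.17 ± 0.229 RPKM in SMA motor neurons against 0.596 ± 0.0896 RPKM in SMA white matter (adjusted p = 0.00352), and at 4.10 ± 1.57 against 0.886 ± 0.732 RPKM in WT (adjusted p = 0.0218).

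Of 22 radial glia and neural stem genes, 16 were lower and 0 higher in SMA motor neurons, and 13 were lower and 1 higher in WT motor neurons. Tnc, the matrix protein tenascin C, was at 8.41 ± 0.178 RPKM in SMA motor neurons against 108 ± 19.8 RPKM in SMA white matter, and at 14.4 ± 0.113 against 93.9 ± 4.91 RPKM in WT. Hopx, a homeodomain protein without DNA binding, was at 17.1 ± 0.798 against 135 ± 1.84 RPKM in SMA and 12.03 ± 4.77 against 112 ± 26.8 RPKM in WT. Id1 was at 4.70 ± 1.88 against 37.0 ± 1.65 RPKM in SMA and 3.22 ± 0.0947 against 33.8 ± 3.20 RPKM in WT. Dbi, which binds acyl-CoA, was at 691 ± 109 against 2539 ± 74.95 RPKM in SMA and 569 ± 32.4 against 1770.0 ± 268 RPKM in WT. These 4 genes passed in both genotypes (limma adjusted p of 3.12e-04 or less). Ddah1, which breaks down methylated arginine, was higher in WT motor neurons (78.8 ± 3.57 against 32.7 ± 4.15 RPKM, adjusted p = 0.0344), and in SMA it was at 91.1 ± 52.7 against 52.1 ± 13.8 RPKM (adjusted p = 0.194).

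Of 19 tested reactive astrocyte genes, 8 were lower and 1 higher in SMA motor neurons, and 6 were lower and 3 higher in WT motor neurons. Cd44, the hyaluronan receptor, was at 3.29 ± 3.40 RPKM in SMA motor neurons against 27.1 ± 1.42 RPKM in SMA white matter, and at 2.46 ± 0.719 against 23.5 ± 2.40 RPKM in WT. Vcan, the proteoglycan versican that oligodendrocyte precursors also make, was at 7.66 ± 3.46 against 27.9 ± 4.19 RPKM in SMA and 6.12 ± 0.206 against 22.3 ± 3.28 RPKM in WT. Both passed in both genotypes (limma adjusted p of 0.00468 or less), as did S100a10 on the higher side, which the list of relatives also holds. Serping1 (the C1 inhibitor), Cd109 and Psmb8 were also lower in both genotypes. Cp (ceruloplasmin) was lower in SMA (adjusted p = 0.00167) and did not pass in WT (adjusted p = 0.0545). Ptgs2 and Stat3 were higher in WT motor neurons (adjusted p = 0.0232 and 0.0434).

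Among 15 tested genes of the glutamate and glutamine cycle, the genes that passed were mostly higher in motor neurons, 4 in each genotype. These were the aminotransferases Got1 (152 ± 0.214 RPKM in SMA motor neurons against 23.6 ± 5.61 RPKM in SMA white matter, and 178 ± 22.1 against 16.1 ± 0.689 RPKM in WT) and Got2, the vesicular glutamate transporter Slc17a6, which the interneuron list also holds, and the neuronal glutamate transporter Slc1a6. Glud1, glutamate dehydrogenase, was lower in SMA motor neurons (128 ± 53.7 against 309 ± 1.48 RPKM, limma adjusted p = 0.00952), and in WT it was at 132 ± 6.84 against 243 ± 63.3 RPKM (adjusted p = 0.0595). The uptake genes Slc1a2 and Slc1a3 described above were lower in motor neurons in both genotypes.

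Among 16 filament and endfoot partner genes, 5 were lower and 3 higher in SMA motor neurons, and 1 was lower and 4 higher in WT motor neurons. The higher ones were the neuronal filament genes Nefl, Prph and Ina in both genotypes and Synm in WT, of which Prph is also a motor neuron marker. Nefl was at 1073 ± 118 RPKM in SMA motor neurons against 88.0 ± 25.9 RPKM in SMA white matter, and at 1303 ± 303 against 51.2 ± 2.26 RPKM in WT. Kcnj10, the potassium channel that sits with Aqp4 in endfeet and that the other astrocyte list also holds, was lower in both (8.76 ± 5.79 against 55.9 ± 13.8 RPKM in SMA, limma adjusted p = 0.00134; 12.7 ± 0.633 against 38.2 ± 1.54 RPKM in WT, adjusted p = 0.0189). In SMA the lower genes with the smallest p also included Nes, the nestin filament of radial glia, Dag1, the dystroglycan that anchors endfeet to the basal lamina, and the muscle filament gene Des.

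**Figure D3:**
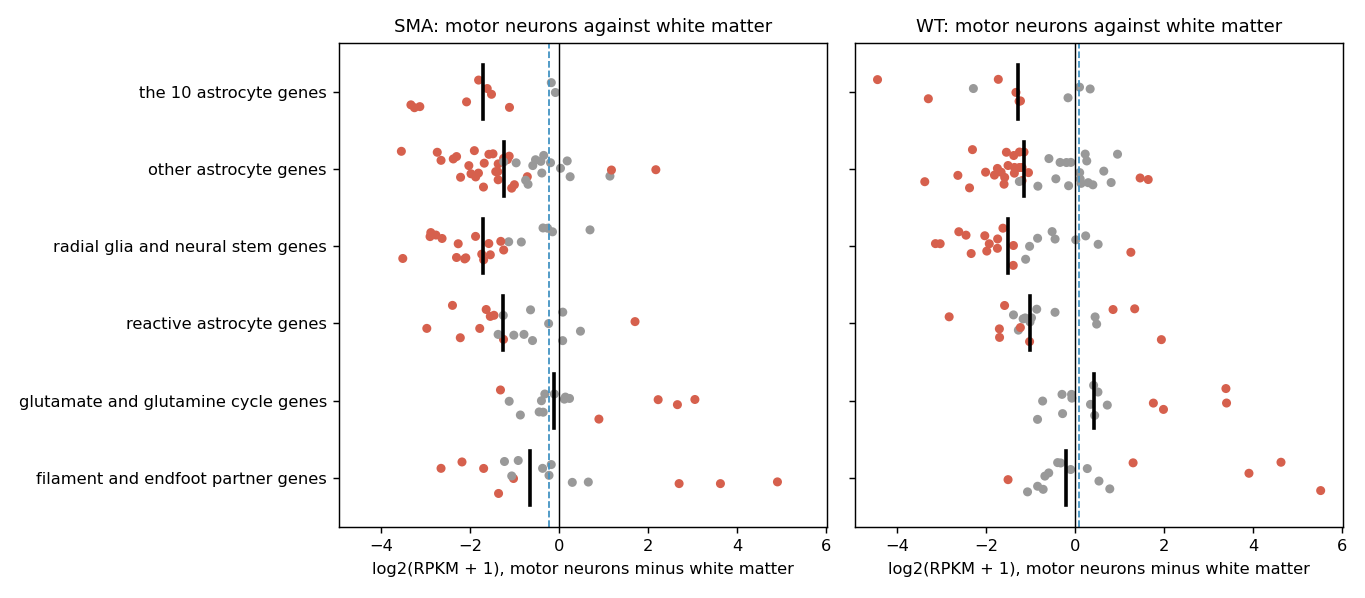
Log2(RPKM + 1) in motor neurons minus white matter for the 10 genes and the related lists, in SMA (left) and WT (right), 1 point per tested gene. Red points have a limma adjusted p under 0.05 and grey points do not, black bars mark the list median, and the dashed line marks the median of all tested genes, -0.24 in SMA and 0.079 in WT. Astrocyte, radial glia and reactive genes lie mostly left of 0, and glutamate cycle and filament partner genes spread to both sides.

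Replicates differed more for some of the 10 genes than for most genes. In SMA motor neurons Fabp7 was 11.1 times higher in replicate 1 than in replicate 2 (89048 and 8071 reads), a gap wider than that of 99.7% of tested genes in that group. Aqp4 was 2.98 times and Slc1a2 2.60 times higher in the same library, wider than 90.7% and 86.8% of tested genes, while Glul and Aldh1l1 were a little higher in replicate 2. The median RPKM ratio of the higher to the lower library over the 10 genes was 1.54 in SMA motor neurons and 1.33 in WT motor neurons. It was 1.185 in SMA white matter and 1.195 in WT white matter. For all tested genes the median fold gap was 1.44, 1.21, 1.25 and 1.26 in the same order. That gap was taken on log2(RPKM + 1), which narrows it for low genes, so the 2 measures are not quite alike. Replicate 1, the library with Xist, was the higher one for 8 of the 10 genes in SMA motor neurons, WT motor neurons and SMA white matter and for 3 of the 10 in WT white matter. It was also the higher one for most tested genes in each group. Over all tested genes the median log2 gap, replicate 1 minus replicate 2, was 0.26 in SMA motor neurons and 0.11 in WT motor neurons. In white matter it was 0.11 in SMA and 0.032 in WT. The medians of the 10 genes were 0.58, 0.26, 0.24 and -0.19 in the same order. Over the summed level of the 10 genes, Fabp7 made up 59.1% and 13.6% in SMA motor neurons, 51.3% and 37.1% in WT motor neurons and 63.8 to 70.4% in white matter.

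**Figure D4:**
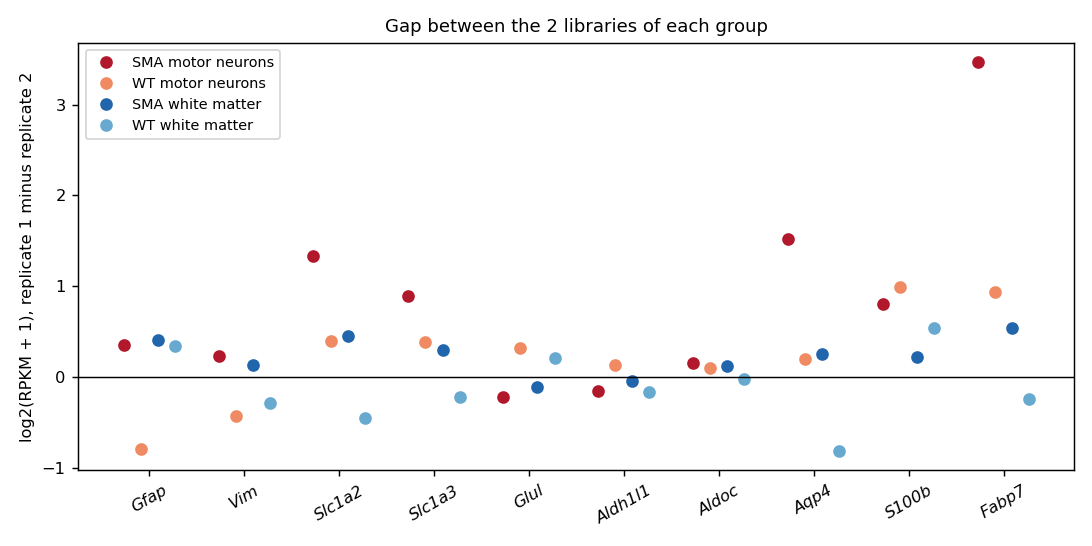
Log2(RPKM + 1) in replicate 1 minus replicate 2 for each of the 10 genes, with 1 point per group. Fabp7 in SMA motor neurons stands apart at 3.47, followed by Aqp4 and Slc1a2 of the same group.

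The second comparison asked which of these genes differed between SMA and WT motor neurons. None of the 10 was called by limma (0 of 13948 tested genes, or 0% of all genes, with a smallest adjusted p of 0.258). By voom on recovered reads, 0 of the 10 and 1 gene in all were called. At an unadjusted p under 0.05 stood 1 of the 10, Gfap, and 4.37% of all genes. The median log2 difference of the 10 was 0.081, beside -0.050 for all tested genes, and 7 of the 10 were positive, beside 44.2% of all genes.

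Gfap had the largest difference of the 10 in motor neurons. It was at 20.9 ± 3.74 RPKM in SMA motor neurons against 6.92 ± 2.998 RPKM in WT motor neurons (SD, n = 2 each), 3.02 times as high, and both SMA libraries lay above both WT libraries. Reads on the gene were 4990 and 3901 in SMA motor neurons and 1135 and 1821 in WT motor neurons. The log2 difference was 1.51 ± 0.32, higher than in 99.7% of tested genes (unadjusted p = 8.74e-04, limma adjusted p = 0.556). That SMA lay above WT within each replicate number, which also splits the libraries by Xist, follows from this lack of overlap. Over the 19 alternatives the value stayed between 1.11 and 1.90 and the adjusted p between 0.102 and 1. The libraries of SMA and WT also did not overlap for Aldh1l1, at 17.2 ± 1.32 RPKM in SMA motor neurons against 13.4 ± 0.922 RPKM in WT motor neurons (0.34 ± 0.24, limma adjusted p = 1). Groups did not overlap for 2 of the 10 genes, beside 28.2% of all genes.

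For the other 8 genes the SMA and WT motor neuron libraries overlapped, with log2 differences from -0.65 ± 0.85 (Fabp7) to 0.27 ± 0.23 (Vim). Slc1a2 differed by -0.080 ± 0.41, Slc1a3 by 0.10 ± 0.33, Glul by 0.057 ± 0.24 and Aldoc by 0.010 ± 0.17. Aqp4 differed by 0.12 ± 0.45 and S100b by -0.15 ± 0.40. The sign of Fabp7 changed with 1 library: without SMA motor neuron replicate 1 its difference was -2.38 and was called (limma adjusted p = 0.0299; 0.0299 to 1 over the 19 alternatives), and without SMA motor neuron replicate 2 it was 1.08. Without replicate 1, 122 genes were called in all.

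The sums of some marker lists of other cells did not overlap between SMA and WT motor neurons either, though no gene of the marker lists passed. The summed level of the 10 microglia genes was 91.7 and 80.3 RPKM in SMA motor neurons against 31.4 and 36.2 RPKM in WT motor neurons, with no gene listed at 0 in either. The 9 myelinating oligodendrocyte genes summed to 115 and 78.9 RPKM in SMA motor neurons, with Mog at 0 in replicate 1, against 65.0 and 40.9 RPKM in WT motor neurons, with Mal at 0 in both. The 10 interneuron genes summed to 263 and 387 RPKM in SMA motor neurons against 230.3 and 222 RPKM in WT motor neurons, and the motor neuron sums above were lower in SMA. The 10 fibroblast or meninges genes summed to 42.3 and 16.1 RPKM in SMA motor neurons, with Slc6a13 and Ogn at 0 in both, against 13.5 and 14.5 RPKM in WT motor neurons, with Lum at 0 in both. Oligodendrocyte precursor sums overlapped (121 and 100.5 RPKM against 105 and 90.7 RPKM), as did the endothelial, Schwann cell and red blood cell sums. The sums of the 42 other astrocyte genes did not overlap (1766 and 1606 RPKM in SMA against 1563 and 1311 RPKM in WT motor neurons). Of these genes Agxt2l1 was listed at 0 in SMA replicate 1 and WT replicate 2, and Chrdl1 in SMA replicate 1. The sums of the 10 genes overlapped (2420 and 945.5 RPKM against 1823 and 1311 RPKM), as did those of the 26 reactive genes. The part of the other cell types in the Gfap value was not tested.

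No gene of the related lists passed between SMA and WT motor neurons, among 41 other astrocyte, 22 radial glia and neural stem, 19 reactive, 15 glutamate cycle and 16 filament and endfoot partner genes and 12 close relatives. Of the relatives S100a6 had the smallest p, at 25.5 ± 5.63 RPKM in SMA motor neurons against 12.1 ± 1.497 RPKM in WT motor neurons (1.01 ± 0.24, limma adjusted p = 0.627). The smallest p among other astrocyte genes belonged on the higher side to Apoe, a lipoprotein that microglia also make (345 ± 48.6 RPKM in SMA motor neurons against 221 ± 27.7 RPKM in WT motor neurons), and Ntsr2 (5.95 ± 0.811 against 2.37 ± 0.475 RPKM). On the lower side it belonged to the coagulation factor receptor F3 (2.24 ± 1.25 against 4.604 ± 0.267 RPKM) and Id4 (3.25 ± 0.640 against 4.82 ± 0.0595 RPKM). The limma adjusted p of these 4 was 0.796 or more. Among radial glia genes Tnc was at 8.41 ± 0.178 RPKM in SMA against 14.4 ± 0.113 RPKM in WT and Hopx at 17.1 ± 0.798 against 12.03 ± 4.77 RPKM. Among reactive genes Socs3, Timp1, Ptgs2 and S1pr3 had the smallest p on either side, at levels of 0.285 to 6.30 RPKM. The median log2 difference was 0.18 for other astrocyte genes, 0.098 for radial glia genes and 0.14 for reactive genes, beside -0.050 for all genes.

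The third comparison set SMA against WT in white matter. Again 0 of the 10 genes were called, and 0% of all genes, with a smallest adjusted p of 0.173 (voom called 0 of the 10 and 1 gene in all). All 10 had a positive log2 difference, but so had 80% of all tested genes, whose median was 0.27. With median-of-ratios scaling that median was 0.0015, and Gfap, Aqp4, S100b and Fabp7 then had a negative difference. The differences of the 10 are given relative to the median of all genes, which moves with the scaling. The median of the 10 was 0.41. Groups did not overlap for 6 of the 10, beside 43.9% of all genes, and 4 had an unadjusted p under 0.05, beside 6.31% of all genes.

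Glul had the largest difference of the 10 in white matter. It was at 93.5 ± 4.8001 RPKM in SMA white matter against 45.9 ± 4.91 RPKM in WT white matter (SD, n = 2 each), 2.04 times as high. The log2 difference was 1.01 ± 0.24, or 0.74 above the median of all genes, and higher than in 97.8% of tested genes (unadjusted p = 0.00176, limma adjusted p = 0.727). It was 0.70 after quantile normalization and 0.68 with median-of-ratios scaling, and lay between 0.66 and 1.12 over the 19 alternatives, with an adjusted p of 0.303 to 1. The libraries of SMA and WT did not overlap, so SMA necessarily lay above WT within each replicate number.

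Vim, Aldh1l1 and Aldoc were the other genes of the 10 with an unadjusted p under 0.05. Vim was at 408 ± 27.7 RPKM in SMA white matter against 265 ± 36.3 RPKM in WT white matter, 0.35 above the median of all genes on the log2 scale (limma adjusted p = 0.741). After quantile normalization, where the median of all genes was -0.0060, the difference of Vim was 0.10, and over both regions it was 0.18. Aldh1l1 was at 51.5 ± 0.966 RPKM in SMA white matter against 32.8 ± 2.64 RPKM in WT white matter, 0.36 above that median (adjusted p = 0.741). Aldoc was at 652 ± 40.7 RPKM in SMA white matter against 482 ± 3.13 RPKM in WT white matter, 0.16 above it (adjusted p = 0.741). Libraries of SMA and WT did not overlap for these 3, nor for Slc1a2 and Slc1a3, which lay 0.20 and 0.12 above the median of all genes. Gfap (0.045 above it), Aqp4 (0.12 below), S100b (0.15 below) and Fabp7 (0.078 below) overlapped between the genotypes.

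In white matter too, the sums of some other marker lists were higher in SMA, though no gene of the marker lists passed between the genotypes. The 10 fibroblast or meninges genes summed to 365 and 294 RPKM in SMA white matter against 107 and 160 RPKM in WT white matter, the 10 microglia genes to 367 and 425 RPKM against 276 and 285 RPKM, the 10 endothelial genes to 55.5 and 41.2 RPKM against 26.4 and 23.5 RPKM, and the 10 oligodendrocyte precursor genes to 1053 and 831 RPKM against 723 and 652 RPKM. No gene of these lists was listed at 0 in white matter. The interneuron sums were 39.5 and 27.9 RPKM in SMA white matter against 27.0 and 12.9 RPKM in WT white matter. The myelinating oligodendrocyte, Schwann cell, red blood cell and motor neuron sums overlapped between the genotypes. The 42 other astrocyte genes summed to 4495 and 3828 RPKM in SMA white matter against 2760 and 2821 RPKM in WT white matter. The 26 reactive genes, some listed at 0, summed to 273 and 289 RPKM against 195 and 207 RPKM. The sums of the 10 genes overlapped (6611 and 4919 RPKM against 4376.5 and 5092 RPKM). The RPKM sum of all genes but Rn45s was 273707 and 252309 in SMA white matter against 211980.0 and 196986 in WT white matter. The part of the other cell types and of that total in the values of the 10 genes was not tested, apart from the rescaled values given above.

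No gene of the related lists passed in white matter either. The smallest p among other astrocyte genes belonged to Ndrg2, a gene of mature astrocytes (391 ± 21.3 RPKM in SMA white matter against 233 ± 27.3 RPKM in WT white matter), and Sparcl1 (986 ± 105 against 588 ± 68.6 RPKM), both with a limma adjusted p of 0.727. Among reactive genes it belonged to Serping1 (9.72 ± 1.73 RPKM in SMA white matter against 3.29 ± 0.0411 RPKM in WT white matter) and the protease inhibitor Serpina3n (58.0 ± 6.76 against 34.4 ± 8.89 RPKM), among radial glia genes to Dbi and Nes, and among filament partners to Ina and Des. The median log2 difference was 0.43 for other astrocyte genes, 0.32 for radial glia genes and 0.29 for reactive genes, beside 0.27 for all genes.

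**Figure D5:**
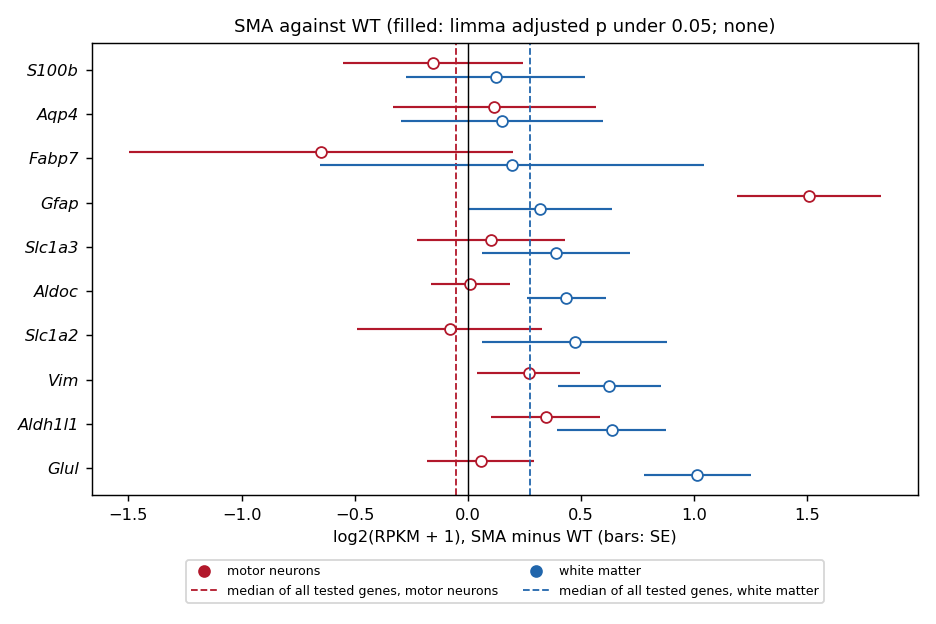
Log2(RPKM + 1) in SMA minus WT for the 10 genes, with bars for the SE, in motor neurons and in white matter. No point is filled, since none had a limma adjusted p under 0.05, and dashed lines mark the median of all tested genes, -0.050 in motor neurons and 0.27 in white matter: Gfap in motor neurons and Glul in white matter lie farthest right.

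Whether the SMA difference itself differed between regions was tested as the SMA effect in motor neurons minus that in white matter. None of the 10 genes was called, and 0% of all genes (2 of the 10 and 4.97% of all genes at an unadjusted p under 0.05; 0 by voom). Gfap was at 1.19 ± 0.45 (limma adjusted p = 0.883) and Glul at -0.96 ± 0.33 (adjusted p = 0.883), beside a median of -0.33 for all tested genes, and no other gene of the 10 had an unadjusted p under 0.05. Averaged over both regions, SMA minus WT was 0.91 ± 0.22 for Gfap, 0.54 ± 0.17 for Glul, 0.49 ± 0.17 for Aldh1l1 and 0.45 ± 0.16 for Vim (adjusted p of 0.761 to 0.764), beside a median of 0.11 for all genes, and 0% of all genes were called (0 of the 10; 1 gene in all by voom). At an unadjusted p under 0.05 these were 4 of the 10 and 5.99% of all genes.

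The genes most like each of the 10 over the 8 libraries were looked up among 12933 tested genes with a mean of at least 1 RPKM, by the root mean square difference of log2(RPKM + 1) after centring each gene on its own mean. For Gfap these were S100a6 (0.39), Pllp (0.46) and Cnp (0.48), of which Pllp and Cnp are genes of oligodendrocyte membranes. For Aqp4 they were Zeb2 (0.17), Epb4.1l2 (0.29) and Sgk1 (0.30), and for Fabp7 Snx5 (0.27), Rps4x (0.399) and 2810468N07Rik (0.40). Slc1a2 was near Sall3 (0.13), Fmnl2 (0.14) and Ednrb (0.14), and of the 10 genes its nearest was Slc1a3 (0.15). Slc1a3 had 3 genes at 0.092 to 0.097 (Anp32e, Ermp1 and Gabpa), Aldh1l1 had Ptpn11 (0.058), Fxyd1 (0.097) and Rgnef (0.10), and Vim had Ccdc80 (0.097), Abca1 (0.10) and Dock1 (0.14). Glul was near Pde8a (0.13), Ech1 (0.13) and 2810046L04Rik (0.16), Aldoc near Gm10012 (0.043), Pcdh10 (0.081) and Csnk1d (0.083), and S100b near Rnf214 (0.16), Nif3l1 (0.17) and Tars2 (0.17). Gfap, Aqp4 and Fabp7, the genes with the widest range over the libraries, had no gene as near as those of the other 7, apart from Zeb2.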

How the data were processed

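Total RNA from laser captures was amplified to cDNA with the NuGEN Ovation system and sequenced, per the labels' protocols. The authors deposited 1 table per library with RPKM per gene symbol; TopHat, bedtools and DESeq with mm9 were used per the submitters' processing notes. Of versions, annotation, counting rule and strand use nothing is stated in the sources used here, so genes that share reads with copies or overlap others are uncertain.

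The 10 genes, the related lists and the tests were chosen with earlier results of these data known. Named genes of a list were up to 4 per direction with the smallest p among those past the threshold, or else up to 2. The nearest 3 genes were taken for likeness.

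Limma 3.58.1 in R 4.3.3 was fitted to log2(RPKM + 1) of the 13948 genes with at least 1 RPKM in at least 2 libraries, with 4 group means over 8 libraries, eBayes with trend, two-sided p and Benjamini-Hochberg adjustment (threshold 0.05). On simulated data for SMA against WT motor neurons, it called 8.09% of genes changed by 1 on the log2 scale. It called 77.8% of those changed by 2 and 100% of those changed by 4. The simulated data held many changed genes together (346 by 1, 334 by 2 and 320 by 4 over all runs). With fewer changed genes the adjustment is stricter, so these shares can be too high for a lone gene. A gene without a call may therefore still differ. Reads were recovered from RPKM steps as whole numbers within 0.02 for 17429 of 17431 genes above 0 in at least 3 libraries. The correlation of replicate differences between groups was -0.34 to 0.081, which cannot tell whether libraries of the same number share an animal. Promoters came from RefSeq (GRCm38.p6); 9 of the 10 genes were used. Alternatives were pseudocount, filter, scaling, variance model, libraries in the fit, block, each library left out and, added after seeing the data, voom. Python 3.11.15, numpy 2.4.6, pandas 2.3.3 and matplotlib 3.10.9 did the rest.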

Additional observations from a re-analysis of the deposited data

How the results depend on the processing

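Of 19 alternatives for each comparison of 2 groups (18 for the other 2 comparisons), none called a gene of the 10 between SMA and WT except that without SMA motor neuron replicate 1 (Fabp7), and each called 6 to 8 of the 10 between regions in SMA and 4 to 7 in WT, all lower in motor neurons. Lower calls ranged from 16 to 29 in SMA and 9 to 27 in WT for other astrocyte genes, and from 10 to 16 and 7 to 16 for radial glia genes. With 2 libraries a group, leaving 1 out assumes that the lone library varies like the other groups. For each change below the cause was not tested.

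Small differences changed sign with the scaling. With median-of-ratios scaling, SMA minus WT in white matter was -0.013 for Gfap, -0.18 for Aqp4, -0.20 for S100b and -0.14 for Fabp7. The SMA effect in motor neurons minus that in white matter was then 0.020 for Vim, 0.080 for Slc1a3, 0.074 for Aldh1l1, 0.34 for Aqp4 and 0.087 for S100b. Over both regions Aqp4 was at -0.015, and motor neurons minus white matter was 0.12 for Aldoc and 0.018 for S100b in SMA and -0.068 for S100b in WT. After quantile normalization, SMA minus WT was -0.053 for Aldoc in motor neurons, and in white matter -0.077 for Gfap, -0.28 for Aqp4 and -0.22 for S100b. The difference of effects was 0.16 for Vim, 0.11 for Slc1a3, 0.041 for Aldh1l1, 0.42 for Aqp4 and 0.096 for S100b. Over both regions Aqp4 was at -0.075, and between WT regions Aldoc was at -0.095 and S100b at -0.34. Scaled to the sum without Rn45s, SMA minus WT in white matter was -0.042 for Gfap, -0.21 for Aqp4, -0.23 for S100b and -0.17 for Fabp7, and the difference of effects 0.0046 for Vim, 0.067 for Slc1a3, 0.069 for Aldh1l1, 0.32 for Aqp4 and 0.073 for S100b. Over both regions Aqp4 was at -0.051, and between WT regions Aldoc was at -0.079 and S100b at -0.31. With voom, chosen after seeing the data, these were -0.041, -0.22, -0.23 and -0.17 for Gfap, Aqp4, S100b and Fabp7 in white matter, 0.068, 0.12, 0.11, 0.40 and 0.10 for Vim, Slc1a3, Aldh1l1, Aqp4 and S100b in the difference of effects, -0.021 for Aqp4 over both regions, and -0.14 for Aldoc and -0.34 for S100b between WT regions.

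Leaving out each library in turn changed further signs. SMA minus WT in motor neurons ranged from -0.75 to 0.59 for Slc1a2, -0.34 to 0.55 for Slc1a3, -0.11 to 0.22 for Glul, -0.071 to 0.091 for Aldoc, -0.64 to 0.87 for Aqp4, -0.65 to 0.34 for S100b and -2.38 to 1.08 for Fabp7. In white matter it ranged from -0.25 to 0.56 for Aqp4, -0.15 to 0.40 for S100b and -0.076 to 0.47 for Fabp7. Over both regions the ranges were -0.14 to 0.53 for Slc1a2, -0.25 to 0.51 for Aqp4, -0.26 to 0.23 for S100b and -1.09 to 0.64 for Fabp7. For the difference of effects they were -1.22 to 0.12 for Slc1a2, -0.73 to 0.16 for Slc1a3, -0.79 to 0.72 for Aqp4, -0.77 to 0.22 for S100b and -2.58 to 0.89 for Fabp7. For S100b between regions they were -0.59 to 0.22 in SMA and -0.40 to 0.59 in WT.

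Counts of all genes called moved as follows. SMA against WT over both regions, with 0 calls, had 2 with either other pseudocount, 1 with at least 3 RPKM, 3 after quantile normalization, 1 with the sum without Rn45s, 1 by voom and 0 to 8 without 1 library. SMA against WT motor neurons, with 0, had 1 with no filter, 1 by voom and 0 to 122 without 1 library, with 0 to 1 of the 10 genes. SMA against WT white matter, with 0, had 1 after quantile normalization, 1 with the 4 compared libraries only, 1 by voom and 0 to 1 without 1 library, and the difference of effects had 0 to 17. Between regions, SMA had 4295 calls, 2415 with the 4 compared libraries only and 2271 to 5538 without 1 library, and WT had 3967 and 2015 to 5328 without 1 library. Of the calls between regions, 44.2% in SMA and 65.4% in WT were higher in motor neurons, 51.7% and 51.7% after quantile normalization and 41.2% and 44.6% with the sum without Rn45s.

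Replicate numbers are shared by the groups, and so is the split by Xist. The correlation of replicate differences cannot tell whether libraries of the same number share an animal. With the replicate number as a block, 8 of the 10 genes and 4138 genes in all were called between regions in SMA, 7 and 3848 in WT (Fabp7 was gained, limma adjusted p = 0.0445), and 0 between SMA and WT in any comparison.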

Other observations

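Genes of ion and junction coupling in astrocytes, picked by function after their values were known, did not all pass the test between the regions. Gja1, the main astrocyte connexin, was at 17.8 ± 4.37 RPKM in SMA motor neurons against 64.9 ± 10.4 RPKM in SMA white matter, and at 14.7 ± 0.380 RPKM in WT motor neurons against 47.1 ± 8.63 RPKM in WT white matter (SD, n = 2 each; limma adjusted p = 0.00147 in SMA and 0.0024 in WT). Gjb6, the other large astrocyte connexin, was at 3.89 ± 1.63 RPKM in SMA motor neurons against 3.67 ± 0.0263 RPKM in SMA white matter, and at 4.52 ± 0.986 RPKM in WT motor neurons against 2.62 ± 1.21 RPKM in WT white matter (adjusted p = 0.969 in SMA and 0.256 in WT). Atp1b2, a sodium pump subunit of glia, was at 127 ± 40.2 RPKM in SMA motor neurons against 168 ± 37.8 RPKM in SMA white matter, and at 117 ± 27.3 RPKM in WT motor neurons against 133 ± 4.61 RPKM in WT white matter (adjusted p = 0.291 in SMA and 0.648 in WT). The part of other cell types in these values was not tested.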
